A study of Mus musculus with 20 samples.

Results

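The 10 genes described here are the 4 tissue inhibitors of metalloproteinases (Timp1 to Timp4) and 6 matrix metalloproteinases (Mmp2, Mmp3, Mmp8, Mmp9, Mmp12 and Mmp14). They were chosen by symbol, and every probe of these symbols on the array was taken. A probe was kept where its detection p-value was under 0.01 on at least 5 of the 20 arrays. This left 13 of 16 probes and 9 of 10 genes, out of 18683 kept probes and 10278 genes with a kept probe in the series. The arrays are Illumina BeadChips hybridised with biotin-labelled cRNA of C57BL/6J mice, 12 to 15 weeks old, with the left ventricle of 1 mouse on each array. Surgery preceded the tissue collection by 3 days in all animals, and the infarct itself was left out, so that the samples are the ventricle outside the lesion. The 4 groups hold 5 mice each: female MI (myocardial infarction by coronary artery ligation), female sham, male MI and male sham. The study's title joins gene expression to the better survival of female mice after infarction, and the design crosses sex with ligation.

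Matrix metalloproteinases are zinc-dependent enzymes that cut the collagens, fibronectin, elastin and other proteins of the extracellular matrix. Most are made as inactive proenzymes that other proteases or membrane-bound partners activate, and Timp proteins block the active enzymes by binding their catalytic site. In the infarcted heart this balance is known for its part in clearing dead tissue, in scar formation and in rupture and dilation of the ventricle. The samples are bulk tissue, in which fewer cells of a type and less RNA per cell cannot be told apart.

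Of the inhibitors Timp1, and of the enzymes Mmp9, Mmp12 and Mmp14, were higher after infarction in both sexes. Timp1, an inducible secreted inhibitor, was 9.85-fold higher in female MI than in female sham hearts and 8.66-fold higher in male MI than in male sham hearts. Mmp14, the membrane-anchored enzyme that activates Mmp2, was 3.94-fold higher in females and 2.38-fold higher in males. Mmp12, the macrophage elastase, was 3.79-fold higher in females and 2.16-fold higher in males, and Mmp9, gelatinase B, 1.96-fold and 2.09-fold. Timp2, Timp3, Timp4 and Mmp2 passed the test in neither sex, and Mmp3 passed it by some of its probes. Calls rest on limma's moderated statistics, adjusted after Benjamini and Hochberg over all kept probes, with an adjusted p under 0.05 required; where genes are counted, each stands by its probe with the highest mean. By this count 4 of 9 members rose and 0 fell in each sex, and by probes 6 of 13 were called in females and 7 of 13 in males, against 30.5% and 16.5% of all kept probes. Of all 10278 genes, 32.5% were called in females (17% up, 15.5% down) and 18.5% in males (10.1% up, 8.36% down). The median log2 difference was 0.32 over the 9 members and -0.04 over all genes in females, and 0.81 and -0.04 in males. Scaling the arrays by their 75th percentile in place of quantile normalisation turned the split of called probes in males from more rises to more falls, with 1305 up and 2669 down against 1642 up and 1445 down, and it kept the 4 members called up while adding a called fall of Timp4 in males.

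The promoters of 4 members with at least 1 probe called up in both sexes are shown because they fall into 2 pairs by the motifs they hold. Each window runs from 250 bases before to 50 after the annotated transcript start, in the gene's direction, from RefSeq on GRCm38.p6. A window was held for 8 of the 10 members, with 2 for Mmp12, and Mmp2 and Mmp9 are only named. Capitals mark matches to AP-1 (TGANTCA), the Ets core (GGAAGT) and the GC box (GGGCGG), each on either strand, and to the TATA box (TATAAA) on the gene's own strand.
Timp1, chrX:20869916-20870215, plus strand: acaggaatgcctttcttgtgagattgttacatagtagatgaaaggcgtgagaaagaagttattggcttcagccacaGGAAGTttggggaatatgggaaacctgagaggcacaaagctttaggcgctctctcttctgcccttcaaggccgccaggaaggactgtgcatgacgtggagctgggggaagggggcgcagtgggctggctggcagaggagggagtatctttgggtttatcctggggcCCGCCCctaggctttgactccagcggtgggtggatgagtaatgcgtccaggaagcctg
Mmp14, chr14:54431348-54431647, plus strand: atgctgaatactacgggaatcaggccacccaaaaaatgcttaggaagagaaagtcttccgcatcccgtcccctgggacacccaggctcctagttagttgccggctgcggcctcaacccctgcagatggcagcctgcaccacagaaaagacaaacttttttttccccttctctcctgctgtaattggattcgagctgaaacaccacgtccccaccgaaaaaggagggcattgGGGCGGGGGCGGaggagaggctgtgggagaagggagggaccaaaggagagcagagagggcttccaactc
Mmp3, chr9:7445572-7445871, plus strand: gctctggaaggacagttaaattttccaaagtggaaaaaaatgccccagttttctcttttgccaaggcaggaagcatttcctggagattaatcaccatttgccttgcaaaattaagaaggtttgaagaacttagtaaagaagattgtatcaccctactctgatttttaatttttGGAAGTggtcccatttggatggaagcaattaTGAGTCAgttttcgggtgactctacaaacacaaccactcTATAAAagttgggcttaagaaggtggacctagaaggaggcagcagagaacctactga
Mmp12, second window, chr9:7347124-7347423, plus strand: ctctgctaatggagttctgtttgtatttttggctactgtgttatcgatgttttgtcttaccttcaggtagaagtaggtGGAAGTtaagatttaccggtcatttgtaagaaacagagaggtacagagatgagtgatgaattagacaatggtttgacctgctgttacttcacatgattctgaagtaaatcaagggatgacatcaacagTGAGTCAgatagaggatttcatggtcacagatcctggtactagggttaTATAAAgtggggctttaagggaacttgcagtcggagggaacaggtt
The Mmp3 window and the second of the 2 Mmp12 windows, of genes that lie close together on chromosome 9, both held AP-1, the Ets core and a TATA box. The AP-1 match began at base -46 from the start in Mmp3 and at base -44 in that Mmp12 window, and both read TGAGTCA. The TATA box match began at base -7 in Mmp3 and at base 5, after the annotated start, in that Mmp12 window. The windows of Timp1 and Mmp14 held GC boxes, 1 in Timp1 and 2 in Mmp14, and Timp1 also 1 Ets core, with no match to AP-1 or the TATA box in these letters. Over all 32841 windows of the same length, 7.81% held AP-1, 23.8% the Ets core, 8.32% the TATA box and 35.7% the GC box. Of the members that passed no test in either sex, Timp2 held 1 GC box, Timp3 held 2 and Timp4 held 1 Ets core. The first Mmp12 window, at the start of the annotated gene, held 2 Ets cores and no match to AP-1 or the TATA box, so that the pairing with Mmp3 rests on the second window, which was chosen for display after its matches were seen. The Mmp8 window held 1 Ets core. A match is a string of letters and not a measured binding site.

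Timp1 lies on chromosome X (20870166 to 20874737, GRCm38.p6) and was measured by 2 probes. On the first (ILMN_3103896) the 5 female MI hearts had normalised log2 intensities of 12.03, 12.51, 11.37, 12.36 and 12.02, against 8.07, 9.91, 8.57, 9.87 and 7.37 in female sham hearts. The 5 male MI hearts had 11.34, 11.52, 12.19, 11.66 and 11.57, against 9.26, 7.70, 7.65, 8.58 and 9.52 in male sham hearts. Every MI heart lay above every sham heart, and the sham hearts of both sexes were the more spread. The means were 12.06 ± 0.44 in female MI and 8.76 ± 1.12 in female sham, and 11.66 ± 0.32 in male MI and 8.54 ± 0.86 in male sham (SD, n = 5 each). The log2 difference was 3.30 in females (SE 0.424, limma adjusted p = 9.16e-06) and 3.11 in males (SE 0.424, limma adjusted p = 6.40e-05). The second probe (ILMN_2769918) gave 3.36 and 3.08, and its residuals after removal of the group means followed those of the first with r = 0.985 over 20 arrays. The Timp1 probes ranked 8th and 10th in females and 7th and 8th in males when all 18683 kept probes were ordered by log2 difference. Within chip 3, the BeadChip with 4 female MI and 2 female sham arrays, the first probe differed by 2.85, and within chip 1, with 3 male MI and 3 male sham arrays, by 3.48. Within chip 2, with 2 male arrays of each kind, it differed by 2.57 and did not pass (limma adjusted p = 0.177).

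The other 3 inhibitors did not pass. Timp2 (chromosome 11, 118301061 to 118355411), a constitutive inhibitor that also takes part in the activation of Mmp2 by Mmp14, read 10.28, 10.18, 10.12, 10.15 and 10.28 in female MI and 10.15, 10.04, 10.80, 10.17 and 10.12 in female sham hearts. In males it read 10.22, 10.17, 10.44, 9.999 and 10.27 after MI and 10.25, 10.23, 10.06, 10.12 and 10.11 after sham surgery. Apart from female sham 3, at 10.80, the values reached at most 10.44. The log2 difference was -0.05 in females with a 95% interval of -0.30 to 0.20, and 0.07 in males with an interval of -0.18 to 0.32.

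Timp3, the inhibitor that binds to the matrix and also blocks several Adam and Adamts proteases, lies on chromosome 10 (86300412 to 86349505). Its first probe (ILMN_2741096) read 10.79, 10.45, 11.20, 10.48 and 11.06 in female MI, against 10.91, 10.89, 11.16, 10.72 and 11.27 in female sham hearts. It read 10.47, 10.51, 10.57, 10.50 and 11.27 in male MI, against 11.08, 10.77, 10.84, 10.72 and 11.01 in male sham hearts. The groups overlapped, and 4 of 5 male MI hearts lay below every male sham heart while male MI 5 lay above them all. The differences were -0.19 in females (-0.54 to 0.15, 95% interval) and -0.22 in males (-0.57 to 0.12), neither called. The second probe (ILMN_2614759) gave -0.38 in females and 0.05 in males, also not called. A further Timp3 probe (ILMN_1232928) was detected on 0 of 20 arrays and has no measured level.

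Timp4, the inhibitor best known from heart muscle, lies on chromosome 6 (115244444 to 115252205). It read 7.32, 7.18, 7.99, 7.71 and 7.88 in female MI, against 7.12, 7.89, 7.93, 7.54 and 8.72 in female sham hearts. It read 7.35, 6.65, 6.90, 6.87 and 8.94 in male MI, against 8.27, 8.62, 8.59, 7.41 and 8.35 in male sham hearts. In males 4 of 5 MI hearts lay below every sham heart, and male MI 5 lay above every sham heart. The log2 difference was -0.91 in males (SE 0.354, limma adjusted p = 0.0836) and -0.23 in females (SE 0.354, limma adjusted p = 0.663). The male value turned on single arrays: without male MI 5 it was -1.31 (limma adjusted p = 0.00406), and without male sham 4, the low sham heart, it was -1.12 (limma adjusted p = 0.0362). Both of these arrays lie on chip 2, where the male difference was 0.03, against -1.53 within chip 1 (limma adjusted p = 0.00366). The call was also made with array weights (adjusted p = 0.0496) and with 75th percentile scaling (-0.97, adjusted p = 0.0489).

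**Figure D1:**
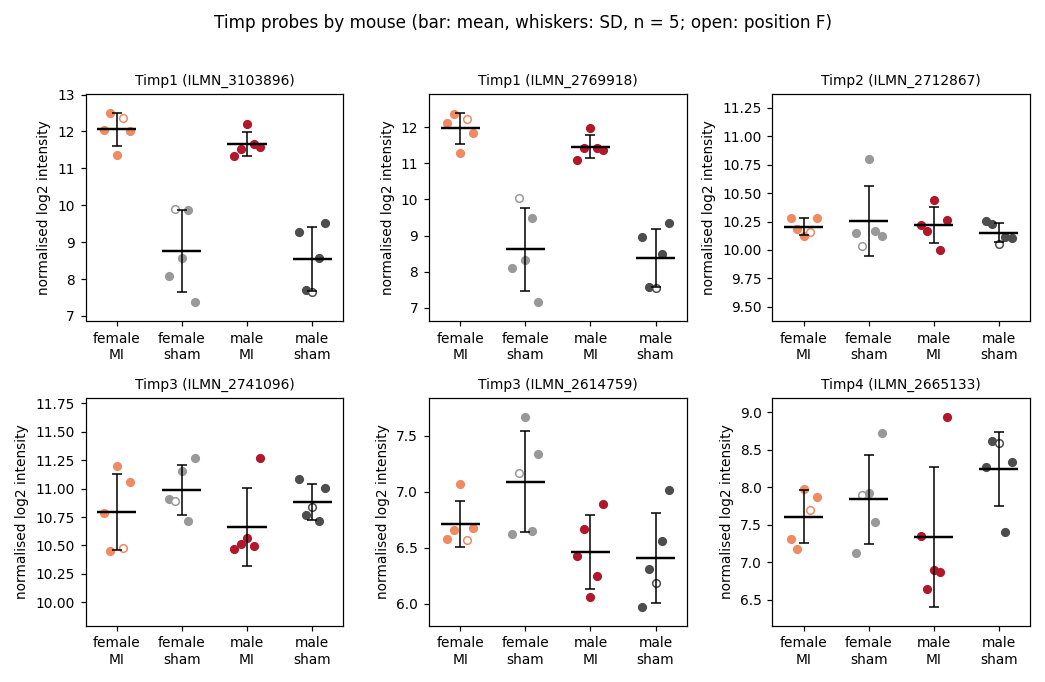
Normalised log2 intensity (y axis) of the 6 kept Timp probes in each of 20 mice, by group (x axis); points are mice, bars are means, whiskers are SDs (n = 5), and open points are arrays in chip position F. All MI hearts lie above all sham hearts on both Timp1 probes, while the groups overlap on Timp2, Timp3 and Timp4.

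Mmp14 lies on chromosome 14 (54431598 to 54442456). The female MI hearts read 10.43, 10.27, 9.36, 10.69 and 9.77 and the female sham hearts 7.91, 9.08, 7.61, 8.45 and 7.56. The male MI hearts read 9.42, 9.19, 10.01, 9.18 and 9.66 and the male sham hearts 8.27, 7.86, 8.57, 8.41 and 8.08. The groups did not overlap in either sex. The log2 difference was 1.98 in females (SE 0.27, limma adjusted p = 1.79e-05) and 1.25 in males (SE 0.27, limma adjusted p = 0.00328). The highest female MI, female sham and male sham values all came from arrays in position F of their chip, and without these 3 arrays the differences were 2.07 in females and 1.34 in males. A second Mmp14 probe (ILMN_1225091) was detected on 0 of 20 arrays.

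Mmp12 lies on chromosome 9 (7344397 to 7360461). It was detected on all 5 arrays of each MI group, on 2 of 5 female sham and on 3 of 5 male sham arrays. It read 7.21, 6.94, 6.12, 6.02 and 7.07 in female MI, against 4.35, 4.85, 4.98, 5.19 and 4.38 in female sham hearts. It read 5.76, 5.78, 5.85, 5.98 and 6.22 in male MI, against 5.20, 4.59, 4.30, 4.94 and 4.98 in male sham hearts. Every MI heart of both sexes lay above every sham heart. The log2 difference was 1.92 in females (SE 0.226, limma adjusted p = 4.00e-06) and 1.11 in males (SE 0.226, limma adjusted p = 0.00209). Since the sham arrays lay near the detection limit, the size depends on the background correction: with none, it was 1.505 in females and 0.83 in males, both still called.

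Mmp9, which degrades denatured collagen and type IV collagen and is stored in neutrophil granules, lies on chromosome 2 (164940326 to 164955850). It was detected on 19 of 20 arrays, with 1 male sham array below the limit. It read 6.04, 6.87, 5.49, 6.67 and 6.89 in female MI, against 5.30, 6.13, 4.72, 5.81 and 5.14 in female sham hearts. It read 5.91, 6.23, 6.95, 6.49 and 6.04 in male MI, against 5.26, 5.04, 4.88, 5.62 and 5.49 in male sham hearts. The groups did not overlap in males. In females they did, since female MI 3, at 5.49, lay below 2 sham hearts. The log2 difference was 0.97 in females (SE 0.277, limma adjusted p = 0.0111) and 1.07 in males (SE 0.277, limma adjusted p = 0.0119). Within chip 3 the female difference was 1.00 and did not pass (limma adjusted p = 0.142).

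Mmp3, stromelysin 1, which cuts many matrix proteins and activates other proenzymes, lies on chromosome 9 (7445822 to 7455975) and had 3 kept probes that differed in their calls. On ILMN_2753809 the female MI hearts read 7.81, 8.31, 7.38, 7.995 and 8.23, against 6.98, 7.75, 7.36, 7.80 and 6.91 in female sham hearts. The male MI hearts read 8.15, 8.13, 8.16, 7.86 and 7.90, against 7.27, 7.16, 6.96, 6.99 and 7.49 in male sham hearts. The male groups did not overlap and the female groups did. The log2 difference on this probe was 0.87 in males (SE 0.183, limma adjusted p = 0.00286) and 0.58 in females (SE 0.183, limma adjusted p = 0.0192). The female call was lost without female sham 1 (0.49, adjusted p = 0.0616), female MI 2 (0.49, 0.0634), female MI 5 (0.51, 0.0519) or female sham 5 (0.47, 0.0641).

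The probe ILMN_2704576 gave 0.85 in males (limma adjusted p = 0.00818) and 0.43 in females (limma adjusted p = 0.128), where leaving out female MI 3 made it a call (0.61, adjusted p = 0.0164). The probe with the highest mean, ILMN_2899041, read 7.99, 8.32, 7.29, 6.59 and 9.16 in female MI, against 7.59, 7.12, 7.40, 8.18 and 7.49 in female sham hearts. It read 8.27, 8.13, 8.50, 8.43 and 8.41 in male MI, against 7.95, 7.44, 6.63, 7.75 and 7.90 in male sham hearts. The lowest value of 3 of these groups came from the position F array (female MI 4, female sham 2 and male sham 3). Its difference was 0.32 in females and 0.81 in males, with limma adjusted p = 0.511 and 0.104. By its highest-mean probe Mmp3 is thus not among the 4 genes called, although its male groups did not overlap. Counting genes whose groups did not overlap gave 3 members in females (Timp1, Mmp12 and Mmp14) and 5 in males (these with Mmp3 and Mmp9). Of all genes, 15.2% did so in females and 19% in males.

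Mmp2, gelatinase A, lies on chromosome 8 (92827290 to 92853421) and is made as a proenzyme that Mmp14 activates at the cell surface. It read 10.22, 9.99, 10.14, 10.26 and 9.97 in female MI, against 9.997, 9.99, 10.26, 10.11 and 9.89 in female sham hearts. It read 10.14, 9.92, 10.23, 9.98 and 10.29 in male MI, against 9.80, 9.78, 10.12, 10.08 and 10.12 in male sham hearts. All 20 values lay between 9.78 and 10.29 and the groups overlapped. The difference was 0.07 in females (-0.15 to 0.29, 95% interval) and 0.13 in males (-0.09 to 0.35). Mmp8, the neutrophil collagenase (chromosome 9, 7558429 to 7568486), was not detected: its only probe had a detection p-value of at least 0.142 on every array, with raw intensities between 26.3 and 37.7. It was left out of every test.

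**Figure D2:**
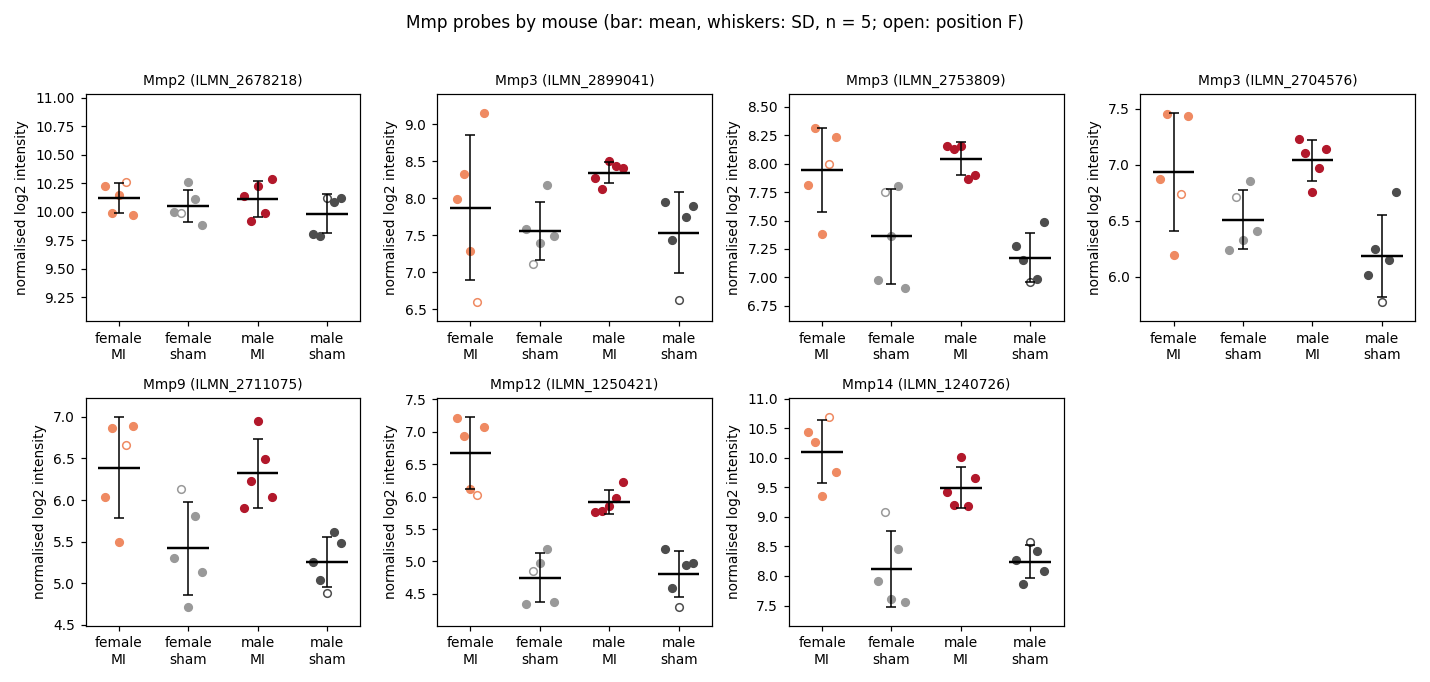
Normalised log2 intensity (y axis) of the 7 kept Mmp probes in each of 20 mice, by group (x axis); points are mice, bars are means, whiskers are SDs (n = 5), and open points are arrays in chip position F. Mmp12 and Mmp14 separate MI from sham hearts in both sexes, and the 3 Mmp3 probes overlap in females.

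**Figure D3:**
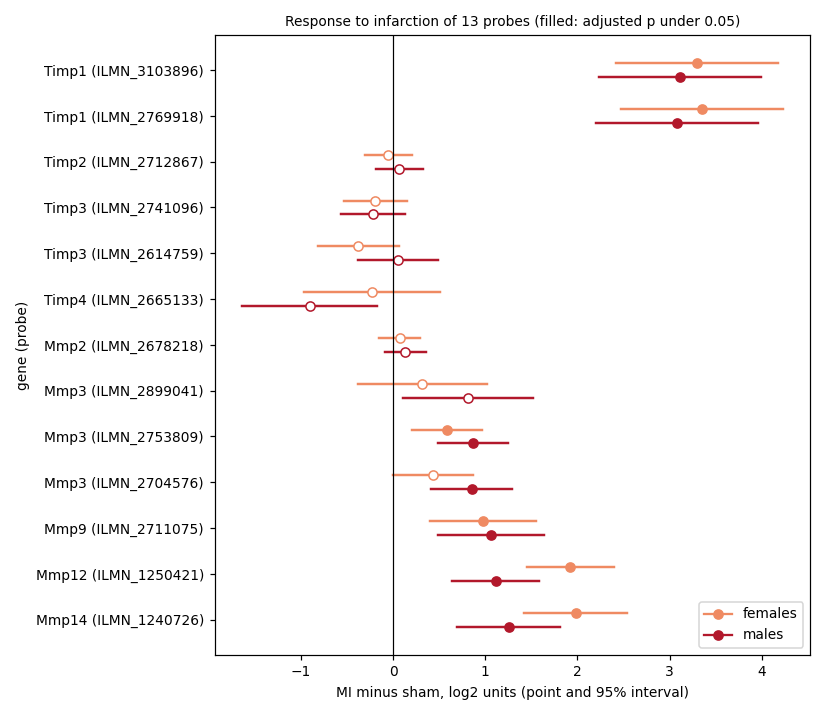
Log2 difference between MI and sham hearts (x axis; point and 95% interval) for the 13 kept probes (y axis), in females and in males; filled points have an adjusted p under 0.05. The Timp1 intervals lie above 2 in both sexes, and those of Timp2 and Mmp2 enclose 0.

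Females and males were then compared. After MI, no member was called between the sexes, and 0.136% of all genes were. Mmp12 was nearest: the 5 female MI values averaged 6.67 ± 0.56 and the 5 male MI values 5.92 ± 0.19 (SD), and the groups overlapped. The difference of 0.75 (SE 0.226) had an unadjusted limma p of 0.00314 and an adjusted p of 0.161. Without female MI 3 it was 0.89 and passed (limma adjusted p = 0.0337), and with array weights it was 0.98 (adjusted p = 0.0026). Array weights raised the called probes of this comparison from 27 to 2271 of 18683. Over the settings other than leaving out each array, the Mmp12 difference ran from 0.33 to 0.98, with limma adjusted p up to 0.729. Mmp14 averaged 10.10 ± 0.54 in female MI and 9.49 ± 0.35 in male MI hearts, a difference of 0.61 (limma adjusted p = 0.311), which passed with array weights only (0.77, adjusted p = 0.0118). No female MI array shares a chip with a male MI array, so that sex and chip cannot be told apart after MI. At an unadjusted p under 0.05, 2 of the 9 members and 14.1% of all kept probes differed between the sexes after MI.

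After sham surgery no member was called either, against 0.117% of all genes. The second Timp3 probe came nearest, at 7.09 ± 0.45 in female sham and 6.41 ± 0.40 in male sham hearts. Its difference was 0.68 (limma adjusted p = 0.194), and 0.10 within chip 2, which carries 2 sham arrays of each sex. The first Timp3 probe gave 0.11.

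The response itself was compared as an interaction, the female difference minus the male difference. No member passed, and 0% of all genes did, by limma with Benjamini-Hochberg adjustment. At an unadjusted p under 0.05 there were 1630 of 18683 kept probes (8.72%), and Mmp12 was the only member among them. The Mmp12 response was larger in females by 0.81 (SE 0.32, unadjusted p = 0.0196, adjusted p = 0.54). For Mmp14 the value was 0.73 (-0.07 to 1.52, 95% interval), for Timp1 0.19 (-1.06 to 1.43), for Mmp9 -0.10 (-0.91 to 0.72) and for Timp4 0.68 (-0.36 to 1.72). These intervals allow sex differences of more than 1 log2 unit in Timp1, Mmp14 and Timp4. In order of level, female MI stood first and male MI second for Timp1, Mmp12 and Mmp14, with neither the 2 MI groups nor the 2 sham groups differing beyond the test.

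Among 7 other matrix metalloproteinases measured, 2 rose in females and none passed in males, where 17% and 10.1% of all genes were called up, and their median log2 difference was 0.14 in females and -0.11 in males. This share is near that of all genes. Mmp23, a membrane-bound enzyme, rose by 1.34 on the log2 scale in females (limma adjusted p = 0.00272), where the groups did not overlap, and differed by 0.46 in males (adjusted p = 0.341). Its female call was lost with the chip as a fixed block (adjusted p = 0.0525). Mmp13, the main collagenase of mice, rose by 0.70 in females (limma adjusted p = 0.00291) and differed by 0.09 in males (adjusted p = 0.759). The other 5 measured (Mmp1a, Mmp11, Mmp17, Mmp24 and Mmp28) passed in neither sex, and their differences ran from -0.36 to 0.34. The interaction did not pass for any of the 7, and Mmp13 and Mmp28 reached the detection minimum of 5 arrays through MI hearts alone.

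Of 10 measured genes that activate, hold or regulate metalloproteinases, 4 rose and 2 fell in females, and 3 rose and 0 fell in males. Of all genes, 17% rose and 15.5% fell in females and 10.1% rose in males, so that the count of falls is near the share of all genes. The list's median log2 difference was 0.47 in females and 0.23 in males. Cd44, a hyaluronan receptor that docks Mmp9 at the cell surface, rose by 1.33 in females and 1.21 in males. Plat, tissue plasminogen activator, rose by 0.89 and 0.64, and Plaur, the urokinase receptor, by 0.93 and 0.51. The male call of Plaur rested on single arrays: it was lost on leaving out any 1 of 7 arrays (male MI 2, 3, 4 or 5, male sham 1, 2 or 5), with adjusted p-values up to 0.105. In females Bsg, which induces metalloproteinases in neighbouring cells, was detected on no MI array and was at least 1.18-fold lower (limma adjusted p = 0.00622). Bsg reached the detection minimum of 5 arrays through sham hearts alone, so that its place among the falls is fixed in part by the detection filter. Pcsk6, a proprotein convertase, fell by 0.42 in females (limma adjusted p = 0.011).

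Of 4 measured metalloproteinases of other families that Timp3 inhibits, 2 rose in both sexes. The share of all genes called up was 17% in females and 10.1% in males. Adamts4 and Adam12, the 2 that rose, reached the detection minimum of 5 arrays through MI hearts alone. The count is thus fixed in part by the detection filter. Adamts4, an aggrecanase, rose by 2.38 in females and 2.07 in males. Adam12, a membrane-anchored disintegrin, was not detected on any sham array of either sex, and was at least 1.88-fold higher in female MI and at least 1.29-fold higher in male MI hearts. Of 18 measured matrix proteins, among them substrates of these enzymes, 13 were called up in females and 10 in males and 0 down, against 17% and 10.1% of all genes called up. Of these 18, 1 (Vcan) reached the detection minimum of 5 arrays through MI hearts alone. Their median log2 difference was 0.97 in females and 0.68 in males, against -0.04 over all genes in each sex. Fibronectin (Fn1) rose by 2.48 in females and 2.46 in males, tenascin C (Tnc) by 3.71 in males, and type I collagen (Col1a1) by 2.03 in males. Col5a1 and Col4a1 rose by 1.81 and 1.19 in females. These genes were named by the smallest p in each comparison of MI with sham. A gene named in females or males alone is thus not shown to rise in that sex alone. The interaction, the female response minus the male response, passed for 0 of the 18.

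Of 16 measured cytokines, growth factors and transcription factors that are known to induce members, 4 rose in females and 2 in males, and 0 fell. This is near the 17% and 10.1% of all genes called up. Il6, Osm and Runx1 reached the detection minimum of 5 arrays through MI hearts alone, and Tnf only through MI and sham hearts together. Il1b, a cytokine that induces Mmp3 and Mmp9, rose by 1.04 in females (limma adjusted p = 0.0327) and 1.24 in males (limma adjusted p = 0.022). Its call was lost on leaving out any 1 of 4 arrays in females (MI 2 or 4, sham 1 or 5; adjusted p up to 0.109) and of 5 in males (MI 2 or 3, sham 1, 2 or 3; up to 0.0658). Tgfb3, a growth factor, rose by 0.69 in females, and Runx1, a transcription factor, by 0.62. In males Runx1 was detected on no sham array and was at least 1.13-fold higher, at the threshold (limma adjusted p = 0.0477), a call lost in 21 of the settings outside single chips.

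Markers of leukocytes moved with the members that rose. For comparison, 17% of all genes were called up in females and 10.1% in males. Of 7 measured neutrophil markers, 7 rose in females and 6 in males, among them S100a8 (2.24 and 1.93 on the log2 scale), Clec4d (2.47 and 1.95) and Csf3r (1.13 and 0.96). This count is fixed in part by the detection filter, since 2 of the 7 (Cxcr2 and Il1r2) reached the minimum of 5 arrays through MI hearts alone and markers detected nowhere dropped out. Their summed background-corrected intensity ran from 906 to 2773 in female MI and from 141 to 677 in female sham hearts, and from 734 to 1928 in male MI and from 156 to 475 in male sham hearts. The neutrophil granule genes Camp, Ngp and Ltf were detected on 0 of 20 arrays and Mpo on 1. Of 16 measured macrophage and monocyte markers, 15 rose in females and 13 in males, with Lgals3 at 2.81 and 2.18 and Fcer1g at 1.75 and 1.37; 1 of the 16 (Ccr2) reached the detection minimum through MI hearts alone. Their sum ran from 19714 to 36422 in female MI and from 10659 to 16275 in female sham hearts. In males it ran from 20375 to 27986 after MI and from 10265 to 15138 after sham surgery. The part of these cells' RNA in the rise of Mmp9, Mmp12 and Timp1 was not tested.

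Fibroblast markers rose in part, with 4 of 9 called up in each sex, against 17% of all genes in females and 10.1% in males. Among them were Cthrc1 (3.42 in females, 2.68 in males), Mfap5 (1.76 and 1.27) and Thy1 (1.30 and 0.84). Of the 9 fibroblast markers, 2 (Cthrc1 and Ddr2) reached the detection minimum through MI hearts alone. Their sum ran from 4375 to 5840 in female MI and from 2822 to 4297 in female sham hearts, and from 3407 to 4257 in male MI and from 1723 to 3171 in male sham hearts. Postn was detected on 0 of 20 arrays. Lum, a fibroblast marker, was higher in female sham than in male sham hearts by 1.04 (limma adjusted p = 0.0333). The part of fibroblast RNA in the rise of Timp1, Mmp3 and Mmp14 was not tested.

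Cardiomyocyte markers, which define the labelled tissue, were present throughout: all 9 measured were detected on 20 of 20 arrays. Creatine kinase (Ckm) fell by 0.87 in females and 0.69 in males, and cardiac troponin I (Tnni3) fell by 0.40 in females, while the other 7 did not pass in either sex. With 75th percentile scaling 3 markers were called down in males and the list's median log2 difference was -0.37 in place of -0.003, and without the position F arrays 3 were called down in females. Their sum ran from 79947 to 89733 in female MI and from 84499 to 92010 in female sham hearts, and from 84386 to 86946 in male MI and from 83825 to 90480 in male sham hearts. Of 7 endothelial markers 1 fell in females (Vwf, by 0.51, lost without female MI 1 or female MI 2, adjusted p up to 0.0646, and with the chip as a fixed block, 0.121) and 0 passed in males. Of 6 smooth muscle and pericyte markers, 2 rose in females (Tagln by 0.66, Acta2 by 0.65) and 2 fell (Myh11 by 0.74, Rgs5 by 0.73). In males 1 rose (Tagln, by 0.57, lost on leaving out any of male MI 3 or 5 and male sham 2 or 5, adjusted p up to 0.0691). Among all genes, 17% were called up and 15.5% down in females, and 10.1% up and 8.36% down in males. The counts of called cardiomyocyte and endothelial markers are near these shares.

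Beyond the group differences, some members varied together from mouse to mouse. With the 4 group means removed, Timp3 (ILMN_2741096) and Timp4 had Pearson's r = 0.74 and Spearman's rho = 0.60 over the 20 arrays, and r = 0.55 without the 2 mice with the most extreme Timp3 values. The second Timp3 probe (ILMN_2614759) gave lower values with Timp4, r = 0.43 and rho = 0.42, and r = 0.50 without its 2 most extreme mice. The 2 Timp3 probes had r = 0.51 with each other. Timp1 (ILMN_3103896) went with Mmp3 (ILMN_2753809) at r = 0.80, with Mmp9 at 0.68, with Mmp14 at 0.61 and with Mmp12 at 0.57. The other Mmp3 probes gave lower values with Timp1, 0.50 (ILMN_2704576) and 0.30 (ILMN_2899041, the probe with the highest mean). Without the 2 mice with the most extreme Timp1 values, r was 0.73 for Mmp3 (ILMN_2753809), 0.65 for Mmp9, 0.43 for Mmp14 and 0.57 for Mmp12. Mmp12 and Mmp14 were nearly unrelated within groups (r = 0.17). These are descriptions over arrays that share chips and a common normalisation. No pooled coefficient is given for Timp1 and Mmp14, whose MI and sham hearts form separate clusters when plotted against each other.

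**Figure D4:**
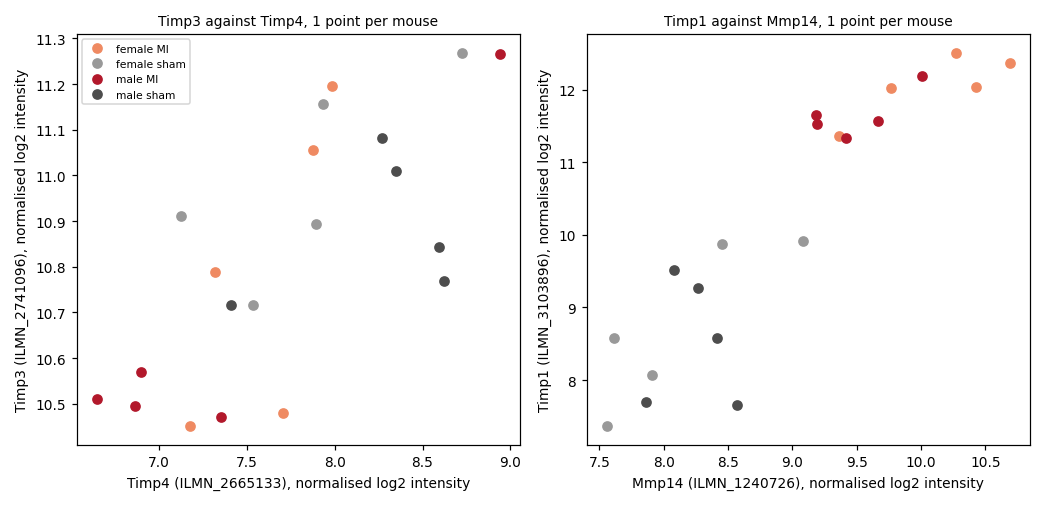
Left, Timp3 against Timp4; right, Timp1 against Mmp14, both in normalised log2 intensity on each axis, 1 point per mouse, coloured by group. Timp3 (ILMN_2741096) and Timp4 run together across groups that overlap, whereas on the right the MI hearts form a cluster apart from the sham hearts.

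By the same measure, with group means removed, the genes most like each of these members were searched among all 10278 genes by their highest-mean probe. For Timp1 they were Hmox1 (heme oxygenase 1, r = 0.92), Arg1 (arginase 1, 0.90) and Pdpn (podoplanin, 0.90). For Mmp14 they were Lhfpl2 (0.96), H2ac12 (0.95) and P4hb (a subunit of collagen prolyl hydroxylase, 0.94). For Mmp12 they were Arpc1b (0.85), Chil3 and Chil4 (macrophage chitinase-like proteins, 0.83 and 0.82). For Timp3 they were Sult1a1 (0.91), Plin4 (a lipid droplet protein, 0.84) and Fam107a (0.83), and for Timp4 they were Zbtb16 (0.84), Xdh (xanthine dehydrogenase, 0.82) and Kcnc4 (0.82). With the group means left in, Tnc stood nearest to Timp1 (r = 0.98), H2ac20 to Mmp14 (0.99), Lgals3 to Mmp12 (0.95) and Zbtb16 to Timp4 (0.86), over arrays in which MI and sham hearts form clusters for Timp1, Mmp12 and Mmp14.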

How the data were processed

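Bead intensities per probe and array and their detection p-values were deposited by the authors as a linear table with no normalisation between arrays, per the file headers and the values. The authors also deposited a log2 matrix, quantile normalised as its equal sorted columns show; no source used here names the scanner software or the array version. Biotin-labelled cRNA was made with an amplification kit, per the labels' protocols.

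From the intensities, limma 3.58.1 in R 4.3.3 corrected the background (normexp, negative controls derived from detection p-values, offset 16), quantile normalised the arrays and took log2. The offset shrinks the fold change of dim probes. Median raw intensity per array ran from 31.4 to 39.2, and 15670 to 18388 of 45281 probes were detected; 5 mice per group limit the precision. Symbols came from the platform annotation (34885 probes with 1 symbol, 18 with several, 10378 with none), and 0 symbols changed on updating. A single linear model, with 1 coefficient for each group, was fitted to the 18683 kept probes on 20 arrays (16 residual degrees of freedom, no covariate), with Benjamini-Hochberg adjustment over the probes of a comparison. The model was tested on simulated data with independent noise. These held no chip or position effects, so that the test does not cover them. Labels do not say whether RNA was processed in batches; chip and position were read from them. Replicate numbers are those of the labels' description field.

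A gene not detected on any array of a group was given as a bound ("at least N-fold"), from the higher of each array's lowest detected signal and the probe's own. From each other gene list, up to 3 called genes per direction with the smallest p in each comparison of MI with sham were named; of the 3 genes most like each member, part is given. The members and lists were chosen with earlier results of these data known. Alternatives were other background corrections, scalings, filters and probe choices, the authors' log2 matrix, replicate and chip blocks, single chips, fewer arrays, array weights, an intensity trend, no position F arrays and leaving out each array.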

Additional observations from a re-analysis of the deposited data

Results flagged for a closer look

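Of 52 sets of 5 mice (13 probes in 4 groups), 4 held a mouse that stood far from the others by Dixon's criterion, and chance gives about 1 in 20 such sets. Timp2 read 10.80 in female sham 3, with the nearest female sham heart at 10.17. Timp3 (ILMN_2741096) read 11.27 in male MI 5, with the nearest male MI heart at 10.57. Timp3 (ILMN_2614759) read 7.07 in female MI 3, with the nearest female MI heart at 6.67. Timp4 read 7.41 in male sham 4, with the nearest male sham heart at 8.27. Male MI 5 was also the highest male MI heart for Timp4, at 8.94, and the male Timp4 difference was called without either it or male sham 4, as given above.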

How the results depend on the processing

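Of 2229 probe values recomputed for the 13 member probes, 2174 kept their side of the threshold and their direction or moved by under 1 SE. A call was lost by 16 and gained by 13, and 0 called values reversed. The other 26 changed sign by over 1 SE, with no call in the main fit or in that setting. The count of 4 called members in males fell to 0 within chip 2. There 2 male MI, 2 male sham and 2 female sham arrays leave few degrees of freedom. Of 18683 probes, 1 was called in males within that chip. Between the sexes after MI, the count of 0 went to 2 with array weights (Mmp12 and Mmp14) and to 1 without female MI 3 (Mmp12). Leaving out each array in turn gave 4 members in females, 4 to 5 in males, 0 to 1 between the sexes after MI, and 0 in the other 2 comparisons. Array weights raised the called probes from 3087 to 5307 in males and from 27 to 2271 between the sexes after MI, with 1 by the interaction; within chip 3, 1304 were called in females, against 5689. Chip as a fixed block called 7 probes between the sexes after MI, none of them a member's. The Mmp3 probe ILMN_2899041 was called in males when only the arrays of the groups compared entered (limma adjusted p = 0.0165) and with array weights (0.0202). The Mmp3 probe ILMN_2753809 lost its female call without the filter on dim probes (0.052), with the chip as a fixed block (0.0757), within chip 3 (0.48) and with only the arrays compared (0.0705), while ILMN_2704576 gained one with array weights (0.00987); the causes were not tested.

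The replicate numbers did not pair the mice: of 30 same-numbered pairs, 10 deviated together with a correlation over 0.1 (range -0.43 to 0.49, median 0.01). With the replicate block 4 members were called in females and 5 in males, the fifth being a fall of Timp4 (-0.91, limma adjusted p = 0.0449). Sex and chip nearly coincide, chip 4 holds 1 array of each female group (log2 difference of Timp1 4.65, Mmp12 2.69 and Mmp14 2.21, with no test), and Mmp12 and Mmp9 lie near the detection limit in sham hearts.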
